A study of Mus musculus with 7 samples.

Results

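The enzymes of the malate-aspartate shuttle and of the glycerol phosphate shuttle were followed in a fast-twitch muscle of the mouse lower leg, the extensor digitorum longus. Genes were taken by name. Mdh1, Mdh2, Got1, Got2, Gpd1, Gpd2 and Gpd1l were 7 of the 19939 genes read by a probe set with a single gene symbol, and each was read through its probe set with the highest mean over all 7 arrays. Mice labelled AMPKα1α2 double knockout (KO, n = 3) were compared with wild type mice (WT, n = 4), with 1 single-colour array of total RNA per sample. AMPK, the AMP-activated protein kinase, becomes active when ATP is short, and α1 and α2 are its catalytic subunits. Both genotypes shared a mixed background of C57/Bl6 and SV129. The labels used here do not give age, sex, exercise state, the exons deleted, or the tissue to which the deletion was limited. Each array was read as 1 mouse, because the design text counts mice.

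The inner mitochondrial membrane does not let NADH pass, so the NADH that glycolysis makes in the cytosol is handed on by shuttles. In the malate-aspartate shuttle, cytosolic malate dehydrogenase turns oxaloacetate to malate and consumes NADH, the malate is carried inward, and mitochondrial malate dehydrogenase makes the NADH anew. Aspartate aminotransferases on either side of the membrane return the carbon as aspartate. In the glycerol phosphate shuttle, a cytosolic dehydrogenase reduces dihydroxyacetone phosphate with NADH, and a flavoprotein on the outer face of the inner membrane oxidises the product and passes its electrons to ubiquinone. The glycerol phosphate shuttle is known for its use in fast glycolytic muscle, and the malate-aspartate shuttle for its use in heart and other oxidative tissue.

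Array medians lay between 7.520 and 7.584 in KO and between 7.501 and 7.545 in WT, on the log2 scale of the deposited values. Across genes, which are not independent replicates, Pearson's r was 0.991 to 0.993 between KO arrays, 0.989 to 0.997 between the genotypes and 0.995 to 0.997 between WT arrays, so the KO arrays were the less alike. Prkaa1, the α1 gene, averaged 9.03 ± 0.20 in KO and 9.54 ± 0.06 in WT (SD, n = 3 and n = 4), and no KO array reached a WT array. Prkaa2, the α2 gene, averaged 12.01 ± 0.05 in KO and 12.22 ± 0.13 in WT, and the genotypes overlapped. Neither passed in limma (adjusted p = 0.12 and 0.39), and the deleted part of these transcripts is not known from the labels, so the genotypes were taken from the labels. Fast fibre markers were high in every array. Myh4, the fastest myosin heavy chain, averaged 13.80 ± 0.02 in KO and 13.79 ± 0.04 in WT, and the mean over 11 fast fibre genes ran from 13.58 to 13.61 in KO and from 13.53 to 13.57 in WT.

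Of the 7 shuttle enzyme genes, 5 had all KO arrays below all WT arrays: Mdh1, Mdh2, Got1, Got2 and Gpd2. The same happened to 5.33% of all genes. Gpd1 and Gpd1l, the cytosolic glycerol 3-phosphate dehydrogenases, overlapped between the genotypes. In limma, adjusted by Benjamini-Hochberg over every tested probe set, 0 of the 7 had an adjusted p under 0.05, as did 0.0251% of all genes (5 of 19939). The smallest adjusted p of a member was 0.11, for Got1. At an unadjusted p under 0.05, 5 of the 7 were lower in KO, against 6.69% of all genes, and 0 were higher, against 3.93%. The median difference of the members was -0.21 on the log2 scale, and that of all genes -0.0049. In bulk muscle, fewer fibres in the sample and less RNA per fibre cannot be told apart.

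**Figure D1:**
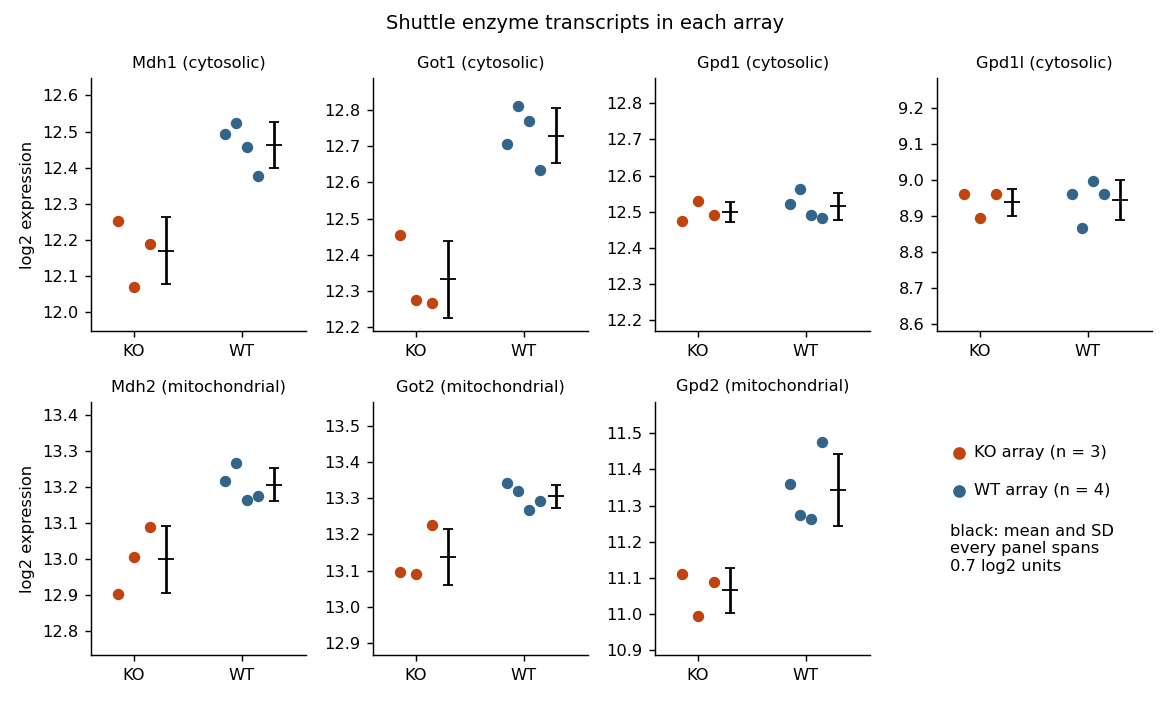
Log2 expression of the 7 genes in each array, with KO at the left and WT at the right of each panel. Coloured points are arrays, black marks are the mean and SD, and every panel spans the same log2 range. In Mdh1, Got1, Mdh2, Got2 and Gpd2 the 3 KO arrays lie below the 4 WT arrays, and in Gpd1 and Gpd1l the genotypes overlap.

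Both cytosolic enzymes of the malate-aspartate shuttle read lower in every KO array than in any WT array. Got1 (probe set 10467842; GRCm38.p6 chr19:43499752-43524605) encodes cytosolic aspartate aminotransferase, which forms oxaloacetate from aspartate. Got1 read 12.46, 12.27 and 12.27 in KO replicates 1 to 3, against 12.71, 12.81, 12.77 and 12.63 in WT replicates 1 to 4. KO replicate 1 stood above the other KO arrays and still 0.18 below the lowest WT array. The difference was -0.40 ± 0.06 (SE), or 1.32-fold lower in KO (limma adjusted p = 0.11). Mdh1 (probe set 10384603; chr11:21556692-21571934) encodes cytosolic malate dehydrogenase, the step that consumes cytosolic NADH. Its values were 12.25, 12.07 and 12.19 in KO, against 12.49, 12.53, 12.46 and 12.38 in WT. The gap between the highest KO array and the lowest WT array was 0.12, smaller than the range of 0.18 within KO. Mdh1 differed by -0.29 ± 0.06, or 1.23-fold lower in KO (limma adjusted p = 0.14).

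The mitochondrial partners differed in the same direction. Mdh2 (probe set 10526381; chr5:135778649-135790386) encodes the malate dehydrogenase of the matrix, which also closes the tricarboxylic acid cycle. It read 12.90, 13.01 and 13.09 in KO, against 13.22, 13.26, 13.16 and 13.18 in WT. KO replicate 3 came within 0.075 of the lowest WT array. Mdh2 differed by -0.21 ± 0.05, or 1.15-fold lower in KO (limma adjusted p = 0.25). Got2 (probe set 10535025; gene at chr8:95864133-95888401) encodes mitochondrial aspartate aminotransferase, which makes the aspartate that leaves the matrix. Got2 values were 13.10, 13.09 and 13.23 in KO, against 13.34, 13.32, 13.27 and 13.29 in WT. Again KO replicate 3 was the nearest to WT, 0.041 below its lowest array. The difference was -0.17 ± 0.04, or 1.12-fold lower in KO (limma adjusted p = 0.26).

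Got2 was the only member with a second probe set. Probe set 10580969 read 13.04, 13.04 and 13.19 in KO, against 13.31, 13.28, 13.20 and 13.23 in WT, a difference of -0.16 ± 0.05 (limma adjusted p = 0.33), and the genotypes again did not overlap. It lay 0.037 to 0.065 below the first in every array. RefSeq also lists a pseudogene, Got2-ps1, at chr5:138363267-138365608 in GRCm38.p6. The annotation used here does not say which of these sequences each probe set reads, so the Got2 signal may include the pseudogene.

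The bases before the gene starts of the 4 malate-aspartate enzymes are shown because these genes read lower together. Gpd2 also read lower, and its windows were searched but are not printed. RefSeq promoter windows of GRCm38.p6 matched 6 of the 7 members, all but Gpd1. They gave 7 windows, since Gpd2 had a second one. The 250 bases before the start were searched on both strands, so that CCAAT on the other strand reads ATTGG. Capitals mark matches to the motifs searched.
Mdh1, chr11:21571935-21572184, minus strand: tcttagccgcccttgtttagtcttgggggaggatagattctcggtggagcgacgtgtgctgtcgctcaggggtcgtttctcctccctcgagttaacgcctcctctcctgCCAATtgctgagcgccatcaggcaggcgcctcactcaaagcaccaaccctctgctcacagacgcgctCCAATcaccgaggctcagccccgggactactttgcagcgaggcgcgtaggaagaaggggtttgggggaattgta
Mdh2, chr5:135778399-135778648, plus strand: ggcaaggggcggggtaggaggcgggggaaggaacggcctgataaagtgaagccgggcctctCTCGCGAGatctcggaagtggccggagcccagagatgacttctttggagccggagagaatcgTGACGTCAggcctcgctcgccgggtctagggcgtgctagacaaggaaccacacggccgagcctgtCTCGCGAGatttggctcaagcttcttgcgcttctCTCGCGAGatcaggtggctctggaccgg
Got1, chr19:43524606-43524855, minus strand: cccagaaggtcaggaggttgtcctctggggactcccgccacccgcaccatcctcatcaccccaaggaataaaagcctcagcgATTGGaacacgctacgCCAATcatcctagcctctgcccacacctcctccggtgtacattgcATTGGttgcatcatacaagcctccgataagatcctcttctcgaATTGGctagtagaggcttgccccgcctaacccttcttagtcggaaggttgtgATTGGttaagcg
Got2, chr8:95888402-95888651, minus strand: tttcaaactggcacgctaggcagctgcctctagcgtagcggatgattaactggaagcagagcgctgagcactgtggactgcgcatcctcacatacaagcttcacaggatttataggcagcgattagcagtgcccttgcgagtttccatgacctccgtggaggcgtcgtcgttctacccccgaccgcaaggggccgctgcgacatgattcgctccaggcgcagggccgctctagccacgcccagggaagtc

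The element of the estrogen-related receptors (TCAAGGTCA) and core letters of the nuclear respiratory factor 1 element (GCGCATGC), regulators known for mitochondrial genes, had 0 matches in the windows of the members. They occurred in 0.387% and 2.26% of all 32851 windows. Only these exact letters were searched, so variants of either element were not counted. Mdh2 held 1 cyclic AMP response element (TGACGTCA), found in 1.55% of windows. It also held CTCGCGAG 3 times, a motif with 1 or more matches in 0.761% of windows and with 3 or more in 2 windows, its own included. Got1 held 5 CCAAT boxes, a number reached by 0.213% of windows, and Mdh1 held 2, a number reached by 10.1%. Gpd1l, which overlapped between the genotypes, held 1, a number reached by 33.8%. Mdh2 and Gpd2 held 0 CCAAT boxes. Got2 and both windows of Gpd2 held no match to any of the 5 motifs. CCAAT and CTCGCGAG were added to the search after these sequences had been read, and no match overlapped one of another motif. A match is a string of letters and does not show binding.

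In the glycerol phosphate shuttle the mitochondrial enzyme read lower in every KO array than in any WT array, while the cytosolic ones differed by less than the spread between arrays. Gpd2 (probe set 10472162; chr2:57237678-57370719) encodes the flavoprotein glycerol 3-phosphate dehydrogenase that feeds ubiquinone. It read 11.11, 11.00 and 11.09 in KO, against 11.36, 11.27, 11.26 and 11.48 in WT. The KO arrays kept within 0.12 of each other and the nearest WT array was 0.15 above them. That gap was smaller than the range of 0.21 within WT. Gpd2 differed by -0.28 ± 0.06, or 1.21-fold lower in KO (limma adjusted p = 0.19). WT replicate 4 was the highest Gpd2 array, and the difference was -0.23 without it.

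Gpd1 (probe set 10426812; chr15:99717587-99725014), the main cytosolic glycerol 3-phosphate dehydrogenase of muscle and fat, showed no such gap. Its values were 12.47, 12.53 and 12.49 in KO, against 12.52, 12.56, 12.49 and 12.48 in WT. KO replicate 2 was above 3 of the 4 WT arrays. The difference was -0.016 ± 0.033, with a 95% interval of -0.09 to 0.06 (limma adjusted p = 0.91), and its sign turned under a further quantile normalization, under array weights and without WT replicate 2. Gpd1l (probe set 10597477; chr9:114899339-114933987) encodes a related cytosolic enzyme, best known in heart from its link to sodium channel function. Gpd1l held 8.96, 8.90 and 8.96 in KO, against 8.96, 8.87, 8.995 and 8.96 in WT. The same value stood on 4 of the arrays, so small differences in it are poorly resolved. A value shared by 2 or more arrays occurred in 59.9% of probe sets of the deposited table. Its difference was -0.0070 ± 0.040, with a 95% interval of -0.10 to 0.09 (limma adjusted p = 0.97), and a sign that turned under quantile normalization and without WT replicate 3 or KO replicate 2.

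**Figure D2:**
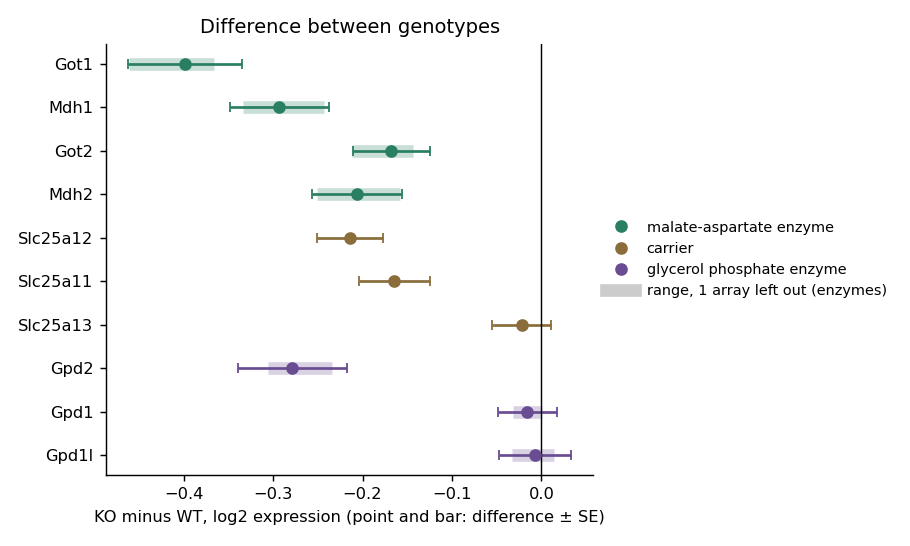
KO minus WT difference in log2 expression for the 4 malate-aspartate enzymes, their carriers and the 3 glycerol phosphate enzymes. Points and thin bars are the difference and its SE, and the pale bands of the enzymes span the values with 1 array left out. Got1 lies lowest at -0.40, and Slc25a13, Gpd1 and Gpd1l lie near 0.

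The malate-aspartate enzymes shared their highest KO array by compartment, but not their lowest. The lowest was KO replicate 2 for Mdh1 and Got2, replicate 3 for Got1 and replicate 1 for Mdh2. Within KO, the cytosolic Mdh1 and Got1 were highest in replicate 1, at -0.09 and -0.10 on the log2 scale relative to their own means over the 7 arrays. The mitochondrial Mdh2 and Got2 were highest in replicate 3, at -0.03 and -0.01. This did not hold for all mitochondrial parts of the shuttle. The carrier Slc25a12 was also highest in KO replicate 3, at 12.998, but the carrier Slc25a11 in KO replicate 1, at 12.51. Within WT, Mdh2 was highest in replicate 2, as were Mdh1 and Got1, and Got2 in replicate 1. The root-mean-square distance between gene-centred log2 values over the 7 arrays was 0.04 between Mdh2 and Got2 and 0.07 between Mdh1 and Got1. It was 0.10 between the malate dehydrogenases and 0.15 between the aminotransferases, so each enzyme was nearer to its neighbour in the same compartment than to its own isoenzyme. Gpd2 was 0.10 from Got2, its nearest member, and 0.16 from Gpd1. Mdh1 was also 0.09 from Got2, the other enzyme in the other compartment. The values were centred but not scaled, so the distances also carry the size of each gene's genotype difference. These distances describe 7 arrays and were not tested.

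**Figure D3:**
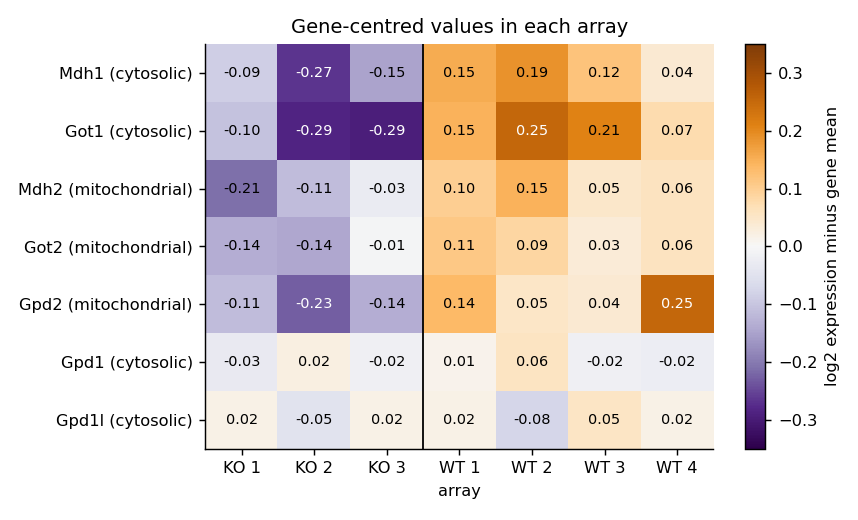
Log2 expression of each gene in each array minus that gene's mean over the 7 arrays, with KO arrays at the left of the line and WT arrays at the right. Mdh1 and Got1 share their highest KO array, replicate 1, while Mdh2 and Got2 share replicate 3, at -0.03 and -0.01. Gpd1 and Gpd1l stay within 0.08 of their means.

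Cytosolic and mitochondrial partners were contrasted as the log2 value of the cytosolic gene minus that of the mitochondrial gene in each array. Levels of different probe sets cannot be set against each other, so only the difference of this contrast between genotypes was read. With 3 against 4 arrays a two-sided exact permutation test cannot give a p under 0.057, so no pair could pass 0.05. The contrast of Gpd1 and Gpd2 was 1.36, 1.53 and 1.40 in KO, against 1.16, 1.29, 1.23 and 1.01 in WT. All KO arrays lay above all WT arrays. It differed by 0.26 ± 0.08, a ratio of cytosolic to mitochondrial signal 1.20-fold higher in KO (exact permutation p = 0.057, the smallest possible; adjusted over 3 pairs, 0.17).

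The aminotransferases leaned the other way. Got1 minus Got2 was -0.64, -0.82 and -0.96 in KO, against -0.64, -0.51, -0.50 and -0.66 in WT. KO replicate 1 lay inside the WT range and the other KO arrays below it. The contrast differed by -0.23 ± 0.10 (exact permutation p = 0.11, adjusted over 3 pairs 0.17), and by -0.15 without KO replicate 3. Mdh1 minus Mdh2 was -0.65, -0.94 and -0.90 in KO, against -0.72, -0.74, -0.71 and -0.80 in WT, with KO replicate 1 above and the other KO arrays below every WT array. It differed by -0.087 ± 0.092 (exact permutation p = 0.29, adjusted over 3 pairs 0.29), by -0.18 without KO replicate 1 and by -0.034 without KO replicate 2. A limma test of the same contrasts, chosen after seeing the data, gave p-values adjusted over the 3 pairs of 0.031 for the Gpd pair, 0.038 for the Got pair and 0.26 for the Mdh pair. That fit included all probe sets and drew the variance of each contrast toward that of single probe sets. Whether this suits a difference between 2 genes was not tested. The Got pair passed in that limma fit only. The Gpd pair passed there and in a limma fit with a block for replicate number (p adjusted over 3 pairs 0.023). In this design the permutation test could pass none. The limma pass of the Got pair came with KO replicate 1 inside the WT range.

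**Figure D4:**
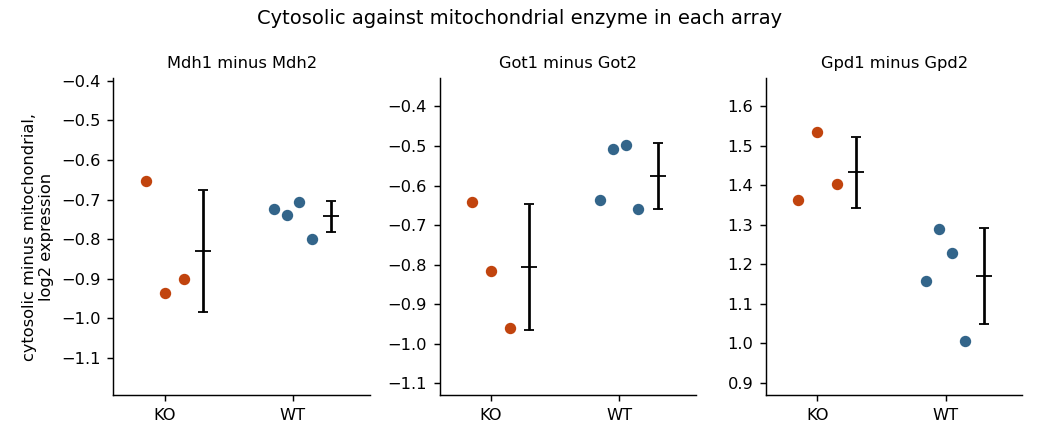
Log2 expression of the cytosolic gene minus that of the mitochondrial gene in each array, with KO at the left and WT at the right. Points are arrays and black marks the mean and SD (KO n = 3, WT n = 4). The KO arrays lie above the WT arrays for Gpd1 minus Gpd2, and KO replicate 1 overlaps WT for Got1 minus Got2.

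Other enzymes with a cytosolic and a mitochondrial form were read the same way, as a description. Of 15 such pairs 11 were measured on both sides, and the contrast was above 0 in 9 and below 0 in 2, with a median of 0.11. The median KO minus WT difference was -0.03 for their cytosolic and -0.10 for their mitochondrial forms. Ckm and Ckmt2, the cytosolic and mitochondrial creatine kinases of muscle, gave the highest contrast, 0.47 ± 0.07, with Ckmt2 at -0.49 ± 0.07 and Ckm at -0.02 ± 0.03. Gpt and Gpt2, the alanine aminotransferases, followed at 0.34 ± 0.26. The lowest were Me1 and Me2, the malic enzymes, at -0.48 ± 0.16, and Shmt1 and Shmt2, the serine hydroxymethyltransferases, at -0.05 ± 0.04. Among the 11 pairs, 3 had all KO arrays above all WT arrays and 1 had all KO arrays below. Some of the 9 contrasts above 0 were smaller than their SE. By sign alone, Gpd1 and Gpd2 stood on the side of the 9. Got1 and Got2 and Mdh1 and Mdh2 stood on the side of the 2, with the Mdh contrast, -0.087 ± 0.092, smaller than its SE.

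**Figure D5:**
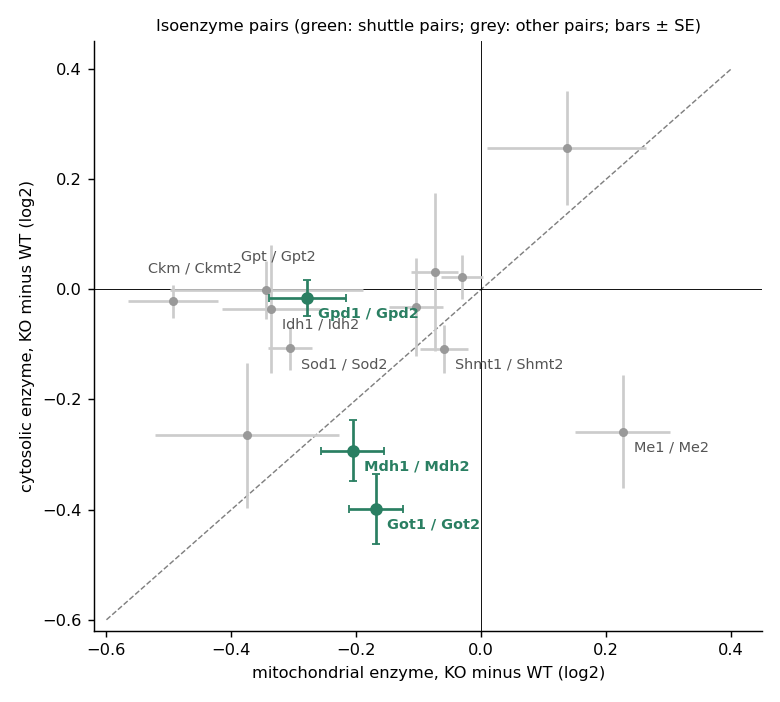
KO minus WT difference in log2 expression of the mitochondrial enzyme (horizontal) and of its cytosolic form (vertical), with bars of ± SE. Green points are the 3 shuttle pairs, grey points 11 other pairs, and the dashed line marks equal differences. The Got and Mdh pairs lie below the line, and the Gpd pair above it.

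Of the 3 carriers that complete the malate-aspartate shuttle, 2 read lower in every KO array than in any WT array, as 5.33% of all genes did. Slc25a12 (aralar), the aspartate-glutamate carrier of muscle and brain, read 12.89, 12.88 and 12.998 in KO, against 13.13, 13.13, 13.15 and 13.13 in WT, with no overlap. It differed by -0.21 ± 0.04 (limma adjusted p = 0.12). Slc25a11, the carrier that exchanges malate for 2-oxoglutarate, read 12.51, 12.47 and 12.42 in KO, against 12.59, 12.66, 12.68 and 12.59 in WT, also with no overlap. Its difference was -0.16 ± 0.04 (limma adjusted p = 0.23). Slc25a13 (citrin), the aspartate-glutamate carrier typical of liver, differed by -0.02 ± 0.03 and held the value 6.83 in all KO arrays, below the array medians. Of 8 listed dicarboxylate and glutamate carriers 0 passed at the adjusted p in limma and 2 were lower at an unadjusted p under 0.05, against 6.69% of all genes, with a median difference of -0.03.

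Neighbouring routes were counted in the same fit, and no gene of these routes passed at an adjusted p under 0.05 in limma. In the tricarboxylic acid cycle without malate dehydrogenase, 14 of 16 measured genes were lower at an unadjusted p under 0.05, against 6.69% of all genes, and 0 were higher, against 3.93%. Their median difference was -0.18. Sdhc, an anchor subunit of succinate dehydrogenase, differed by -0.27 ± 0.03, and Suclg1, a subunit of succinyl-CoA ligase, by -0.28 ± 0.03. Flavoproteins that, like Gpd2, bring electrons to ubiquinone or to its reductase numbered 7, with 4 lower at that p, against the same 6.69%, 0 higher and a median of -0.18. Etfdh, which passes electrons from fatty acid oxidation to ubiquinone, differed by -0.33 ± 0.08, and Etfb, a subunit of its electron donor, by -0.21 ± 0.06.

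Of 10 measured genes of glycolytic NADH and its other outlets, 5 were lower at an unadjusted p under 0.05, against 6.69% of all genes, and 0 were higher, against 3.93%, with a median of -0.09. Ldhb, the lactate dehydrogenase subunit favoured in oxidative tissue, stood at -0.68 ± 0.12, and the muscle phosphofructokinase gene Pfkm at -0.15 ± 0.04. Among 14 genes that supply or use glycerol 3-phosphate, 1 was lower at that p, a share near the 6.69% of all genes, and 0 were higher, with a median of -0.0031. The genes of smallest p were Aqp7, a glycerol channel of fat and capillary cells, at -0.60 ± 0.18, and Agpat1, which acylates lysophosphatidic acid, at -0.17 ± 0.08. Among 16 enzymes of aspartate, glutamate, malate and oxaloacetate outside the shuttles, 3 were lower at that p and 2 higher, against 6.69% and 3.93% of all genes, with a median of -0.03. Adsl, adenylosuccinate lyase of the purine nucleotide cycle, differed by -0.13 ± 0.04, and Glul, glutamine synthetase, by 0.51 ± 0.17.

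Markers of fibre type and of other cells moved in the same arrays. The mean over 8 slow fibre genes ran from 8.48 to 9.11 in KO and from 8.30 to 8.47 in WT, and 3 of the 8 had all KO arrays above all WT arrays, against 3.29% of all genes. Macrophage markers did so in 8 of 8, with list means of 8.80 to 8.92 in KO and 8.11 to 8.37 in WT. Of 8 endothelial markers 6 had all KO arrays below all WT arrays, against 5.33% of all genes. Their list means were 9.12 to 9.27 in KO and 9.42 to 9.60 in WT. Adipocytes also express Gpd1. Of 7 adipocyte markers 2, Fabp4 and Adipoq, had all KO arrays below all WT arrays, against the same 5.33%. The adipocyte list means were 8.17 to 8.28 in KO and 8.30 to 8.58 in WT. Adipoq, the marker most restricted to adipocytes, averaged 7.31 ± 0.12 in KO and 7.65 ± 0.20 in WT, near the array medians. The part of these cells and fibres in the shuttle enzyme values was not tested. Fibroblast and tendon, erythroid and Schwann cell lists had 1 of 7, 0 of 2 and 0 of 3 measured markers without overlap. Of all genes, 5.33% had all KO arrays below and 3.29% above all WT arrays.

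Genes with the profile most like each member over the 7 arrays were named by the smallest root-mean-square distance of gene-centred log2 values. For Mdh2 they were Ndufa10 and Uqcrq, subunits of respiratory complexes I and III, at 0.029 and 0.034, and for Got2 Tlcd5 and the pyruvate dehydrogenase subunit Pdha1, at 0.023 and 0.024. Mdh1 was nearest to Adck1 and Fam210a at 0.032 and 0.041. Got1 lay nearest to Cdc42ep3 and Slc25a36, a mitochondrial pyrimidine nucleotide carrier, at 0.033 and 0.047. For Gpd2 the nearest were Egfl8 and Pm20d2 at 0.041 and 0.046. Gpd1 and Gpd1l varied so little (0.029 and 0.042 around their own means) that their nearest profiles, Olfr947-ps1 and Ssmem1 and Mir19b-2 and Washc1, were likewise flat.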

How the data were processed

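Per the labels' protocols, biotin labelling started from 100 ng of TRIzol-extracted total RNA. The deposited table holds 28856 probe sets on 7 arrays, and 0 of its columns were left unused. Its values were read as log2 expression deposited by the authors, from their range. For background correction, scaling and software, the sources used here give nothing. Any scaling between arrays would hide a shift common to all transcripts, and the number of arrays limits precision.

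Probe sets were named through GEO's platform annotation: 21789 had 1 symbol and were tested, 1621 had several and 5446 none. Identifiers were matched to the RefSeq table of GRCm38.p6 for 21698 of them, including all 7 members. KO minus WT was fitted with limma 3.58.1 in R 4.3.3 (lmFit, eBayes, no covariate, no filter), and p-values were Benjamini-Hochberg adjusted over all tested probe sets, with a threshold of 0.05. Values after ± are the SE of a difference unless marked SD. For the contrasts of pairs, SE came from the spread between arrays. The members and gene lists were chosen with earlier results of these data known. Named genes were the members, the 2 genes of smallest p in each pathway list, the 2 highest and 2 lowest of the other pairs, the carriers Slc25a11, Slc25a12 and Slc25a13, the targeted genes, and the 2 nearest profiles of each member. Myh4, Fabp4 and Adipoq were chosen after their values were seen.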

Additional observations from a re-analysis of the deposited data

How the results depend on the processing

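The members lower at an unadjusted p under 0.05 numbered 5 in all 15 alternatives, and 0 passed at the adjusted p in limma in any. The 5 members with no overlap are not read as stable from these, since most alternatives either keep the values or leave out an array and cannot lower that count. Mdh1 ran from -0.33 to -0.24, Mdh2 from -0.25 to -0.16, Got1 from -0.46 to -0.37, Got2 from -0.21 to -0.14 and Gpd2 from -0.33 to -0.23 over them, with adjusted p from 0.067 (Got1) to 0.59 (Got2). Gpd1 turned to 0.032 after quantile normalization and to 0.0011 under array weights, and spanned -0.031 to 0.00059 with 1 array left out. Gpd1l turned to 0.0056 after quantile normalization and spanned -0.033 to 0.014 with 1 array left out. The cause was not tested.

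Over all genes, the count at an adjusted p under 0.05 was 5, and 0 with the replicate block, which loses WT replicate 4. With 1 array left out it spanned 0 to 14 (0 without WT replicate 1, 3 or 4, 1 without WT replicate 2, 2 without KO replicate 2, 14 without KO replicate 1). Genes without overlap numbered 1717, and 2132 to 4064 with 1 array left out, since fewer arrays separate more easily.

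Same-numbered arrays deviated from their group means with correlations of 0.29, 0.16 and -0.20, and 4 of 6 arrays correlated best with their own number. Because not every pair was above 0.1 and the labels give no shared animal, litter or day, the numbers were not used as pairs in the main comparison, and pairing is not excluded. The block also drops WT replicate 4, which has no KO array of its number. With the replicate block in limma, Gpd1 minus Gpd2 differed by 0.21 (p adjusted over 3 pairs 0.023) and Got1 minus Got2 by -0.26 (0.094), the same sizes as without WT replicate 4. In limma on all arrays and without the replicate block, Gpd1 minus Gpd2 stood at 0.26 and Got1 minus Got2 at -0.23, both past 0.05. Leaving out 1 array, the Gpd contrast ran from 0.21 to 0.30, the Got contrast from -0.31 to -0.15 and the Mdh contrast from -0.18 to -0.034, in exact tests that could not pass.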
